A study of Homo sapiens with 12 samples.

Results

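A set of 10 genes of Nodal and activin signaling were followed through the differentiation of human embryonic stem cells (hESCs) toward blood: NODAL, GDF3 and INHBA for ligands, ACVR1B, ACVR2B and TDGF1 for receptors and co-receptor, LEFTY1, LEFTY2 and CER1 for secreted antagonists, and FOXH1 for the transcription factor. They were chosen by symbol, so 10 of the 56593 symbols in the expression table are described, each standing on a single line. RNA-seq had been made from 4 populations with 3 libraries each: undifferentiated H1 cells, an established hESC line, and from the same line APLNR+ cells at day 2, CD31+CD34+ cells at day 5 and CD43+ cells at day 8. In the labels' protocol the cultures received 40 ng/ml activin A and 50 ng/ml BMP4 for 2 days, and then 40 ng/ml VEGF and 50 ng/ml bFGF for up to 6 days, whereas the study's methods exchange the activin A and BMP4 concentrations. By their days, the APLNR+ cells were taken at the end of the activin A and BMP4 step and before VEGF and bFGF. The CD31+CD34+ cells were taken within the VEGF and bFGF step, and the CD43+ cells at its end. For short, the step from H1 to APLNR+ cells is called the activin step, although BMP4 was given with activin A. The labels name no altered gene in any population, and nothing in the labels says that the 3 libraries of a population came from separate cultures, so p-values measure only the spread between these libraries, which may be technical.

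Levels are FPKM, the fragment number scaled by transcript length and by library size, as the authors deposited it. The values carry no read totals, so the depth of each library is unknown and no counting interval can be given. Depth relative to CD43+ replicate 3, read from the lowest values, ran from 0.553 to 1.27, and replicate 1 was the shallowest library of every population. Between populations, log2(FPKM + 1) was compared with limma over 14840 genes, and calls needed a Benjamini-Hochberg adjusted p below 0.05 with at least 2-fold difference. Of the 10 genes, 9 reached the 1 FPKM in 3 libraries needed to enter the test, and INHBA did not. An exact 0 in this table can be a failed estimate, since the translation factor gene EEF1A1 is listed at 0 in 6 libraries. These are replicates 2 and 3 of H1, APLNR+ and CD43+ cells. In replicate 1 of those populations and in all CD31+CD34+ libraries EEF1A1 read from 1839 to 4616 FPKM. The genes used for sorting were expressed in the cells sorted on them. APLNR stood at 383 ± 22.3 FPKM in APLNR+ cells against 0.528 ± 0.152 in H1 (SD, n = 3). PECAM1 (CD31) stood at 55.2 ± 4.10 and CD34 at 47.7 ± 7.08 in CD31+CD34+ cells, and SPN (CD43) at 75.5 ± 15.2 in CD43+ cells. They did not each mark a single population: APLNR read 403 ± 24.6 FPKM in CD31+CD34+ cells. In CD43+ cells PECAM1 read 95.9 ± 11.7 and CD34 22.2 ± 4.21 FPKM. PTPRC, the CD45 gene of more mature blood cells, stayed under 1 FPKM in every CD43+ library.

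Nodal and activin are ligands of the TGF-beta superfamily. They bring together a type II receptor such as ACVR2B and a type I receptor such as ACVR1B, and Nodal also needs an EGF-CFC co-receptor, of which TDGF1 (Cripto) is the member used by hESCs. The activated receptor phosphorylates SMAD2 and SMAD3, which enter the nucleus with SMAD4 and bind DNA beside partners such as FOXH1. NODAL, LEFTY1 and LEFTY2 are themselves classical targets of this route, so that a Nodal signal feeds both itself and its own inhibitors. The pathway is known for holding hESCs in the pluripotent state and, at higher signal, for inducing mesendoderm in the early embryo.

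By mean level, 6 of the 10 genes stood highest in APLNR+ cells, 3 in H1 and 1 in CD31+CD34+ cells, and 9 stood lowest in CD43+ cells. Among the 6, GDF3 and ACVR2B overlapped H1 and CD31+CD34+ cells, and INHBA, counted as highest in H1 and lowest in CD43+ cells, was too low to be tested. The same order was not counted over all genes, so these counts only describe the 10. The ratio of the highest to the lowest population mean ran from 2.76 for ACVR1B and 2.77 for ACVR2B to 702 for TDGF1 and 5319 for CER1. The CER1 ratio rests on CD43+ replicate 1 and was 26327 without it. The receptors were thus the flattest genes of the group, and an antagonist and the co-receptor spanned the widest ranges.

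**Figure D1:**
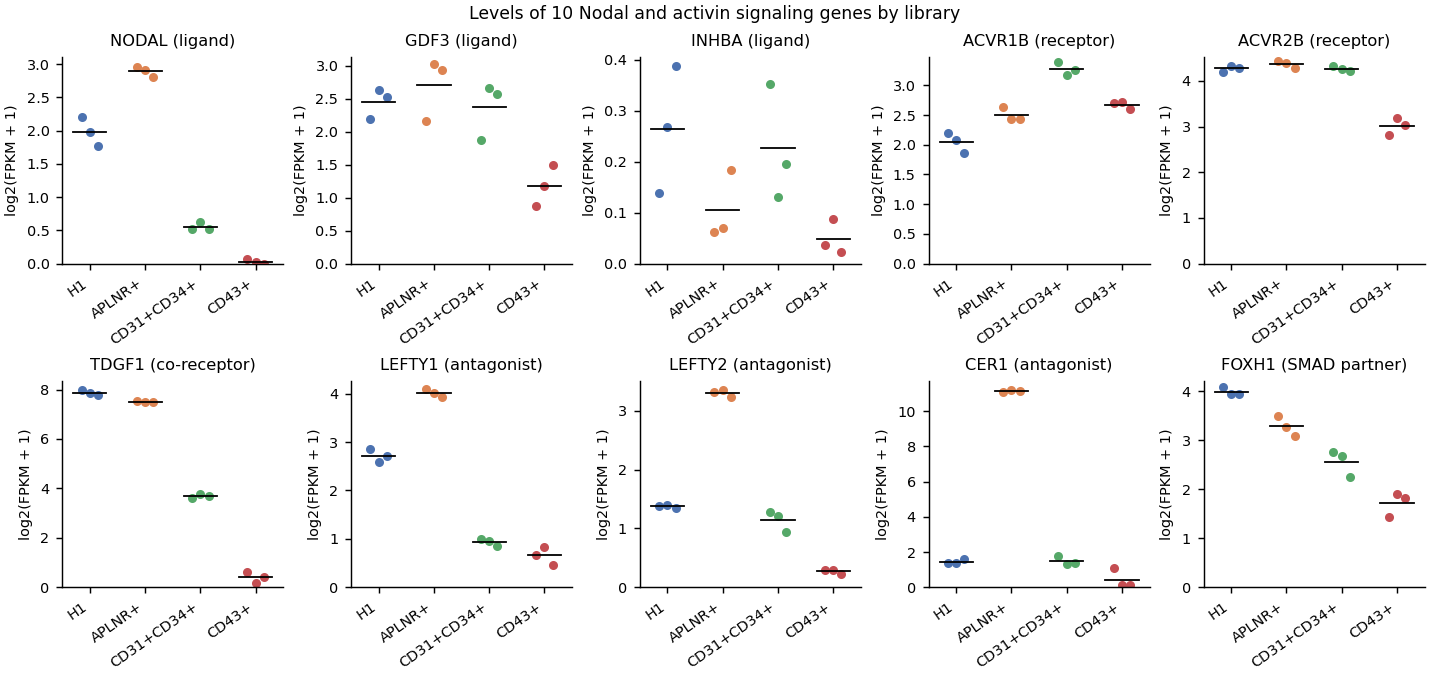
Level of the 10 genes in each of the 12 libraries as log2(FPKM + 1), a panel per gene, with a y axis of its own. Points are single libraries and black bars the means of the log values (n = 3). CER1 reaches 2167 to 2301 FPKM in the APLNR+ libraries and stays at or below 2.40 FPKM in the other 9, while ACVR2B lies between 17.4 and 20.7 FPKM in all libraries but those of CD43+ cells.

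NODAL encodes the ligand that the pathway is named for. Its level in the H1 libraries was 3.62, 2.94 and 2.39 FPKM, and in the APLNR+ libraries 6.77, 6.54 and 5.97 FPKM. The CD31+CD34+ libraries held 0.442, 0.540 and 0.431 FPKM, and the CD43+ libraries 0.0528 and 0.0132 FPKM with a listed 0 in replicate 3. No population overlapped another, and the order was APLNR+, H1, CD31+CD34+ and CD43+. From H1 to APLNR+ cells the mean was 2.15 times as high, yet on the log2(FPKM + 1) scale, which understates changes of low genes, the difference was 0.91 ± 0.11 (SE, adjusted p = 2.01e-05) and fell short of the 2-fold minimum. Without H1 replicate 1, the highest of its population, the same difference was 1.02 and was called. From APLNR+ to CD31+CD34+ cells NODAL fell by 2.34 on the log2 scale (adjusted p = 3.71e-09). The last step, with a difference of -0.53 (adjusted p = 0.00156), lay within levels below 1 FPKM.

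GDF3 encodes a TGF-beta superfamily ligand of pluripotent cells that acts, like Nodal, through Cripto and the activin receptors. It read 3.58, 5.21 and 4.76 FPKM in H1, 3.47, 7.12 and 6.65 at day 2, 2.67, 5.32 and 4.92 at day 5, and 0.826, 1.25 and 1.82 at day 8. The H1, APLNR+ and CD31+CD34+ ranges overlapped, the CD43+ libraries lay below all of them, and replicate 1, the shallowest library, was the lowest of each population. Whether the depth of replicate 1 takes part in this was not tested. The differences of the early steps, 0.25 ± 0.26 (SE, 95% interval -0.32 to 0.83, adjusted p = 0.433) and -0.34 ± 0.26 (-0.91 to 0.23, adjusted p = 0.260), were not called. With replicates 2 and 3 alone they were 0.40 (adjusted p = 0.0268) and -0.37 (adjusted p = 0.0278), still under the 2-fold minimum. GDF3 fell by 1.19 on the log2 scale from CD31+CD34+ to CD43+ cells (adjusted p = 0.00231).

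INHBA encodes the subunit of which activin A, the factor added to these cultures, is a dimer. No library held more than 0.308 FPKM of it. The H1 libraries read 0.10, 0.205 and 0.308 FPKM, the APLNR+ libraries 0.0439, 0.0503 and 0.135, the CD31+CD34+ libraries 0.277, 0.0954 and 0.145, and the CD43+ libraries 0.0260, 0.0623 and 0.0160. The ranges of H1, APLNR+ and CD31+CD34+ cells overlapped. The gene was not tested at these levels, and added activin A is protein that RNA-seq does not see.

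ACVR1B encodes ALK4, the type I receptor for activin and Nodal. Its libraries read 3.59, 3.25 and 2.61 FPKM in H1, 5.23, 4.40 and 4.40 at day 2, 9.54, 8.07 and 8.53 at day 5, and 5.51, 5.56 and 5.08 at day 8. It was the only gene of the 10 with its highest mean in CD31+CD34+ cells and its lowest in H1. Its rise from H1 to CD31+CD34+ cells was 1.23 ± 0.11 on the log2 scale (adjusted p = 6.02e-07) and was called, whereas the single steps of 0.45, 0.78 and -0.60 passed the adjusted p but not the 2-fold minimum. The neighbors CD43+ and APLNR+ overlapped and differed by 0.17 (95% interval -0.07 to 0.42, adjusted p = 0.177).

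ACVR2B encodes a type II receptor that binds activin and, with Cripto, Nodal. It read 17.4, 19.2 and 18.6 FPKM in H1, 20.7, 19.8 and 18.6 at day 2, 19.0, 18.2 and 17.5 at day 5, and 6.04, 8.07 and 7.22 at day 8. The ranges of the first 3 populations overlapped, and their differences had intervals within -0.32 and 0.31 on the log2 scale. The fall came at the last step, by 1.25 (SE 0.10, adjusted p = 6.19e-07). Per library, the ACVR2B level was 5.95 ± 1.14 times the ACVR1B level in H1 (SD, n = 3), 4.23 ± 0.276 times at day 2, 2.10 ± 0.140 times at day 5 and 1.32 ± 0.198 times at day 8, so that the pair came nearer to equal levels at each day.

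TDGF1 was the most abundant of the 10 genes in H1, at 250, 234 and 219 FPKM. APLNR+ libraries held 185, 178 and 178 FPKM, which is 76.9% of the H1 mean and a difference of -0.37 ± 0.11 (SE, adjusted p = 0.00940) that did not reach the 2-fold minimum. The CD31+CD34+ libraries dropped to 11.1, 12.7 and 12.004 FPKM and the CD43+ libraries to 0.526, 0.141 and 0.333 FPKM. No population overlapped another, and the falls were 3.81 (adjusted p = 5.33e-11) and 3.29 (adjusted p = 3.69e-10) on the log2 scale. At day 2 the pluripotency factor gene SOX2 stood at 0.624% of its H1 mean and POU5F1 at 35.3%. The 8 pluripotency markers summed to between 2118 and 2204 FPKM in the H1 libraries, 611 and 682 at day 2, 253 and 301 at day 5 and 74.6 and 85.5 at day 8, with SOX2 under 1 FPKM in every derived library. PODXL alone of these markers was higher at day 5 than at day 2, at 83.0 ± 4.39 against 41.5 ± 0.467 FPKM. It is a sizable part of the day 5 sum. The part of remaining undifferentiated cells in the TDGF1 values was not tested. In bulk RNA, fewer cells that express a gene and less RNA of it per cell cannot be told apart.

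LEFTY1 encodes a secreted inhibitor that binds Nodal and its co-receptor. It read 6.28, 5.03 and 5.53 FPKM in H1 and 16.0, 15.3 and 14.4 FPKM at day 2. It then stood at 0.996, 0.945 and 0.807 FPKM at day 5 and at 0.597, 0.782 and 0.381 FPKM at day 8. No population overlapped another. LEFTY1 rose by 1.30 ± 0.11 (SE, adjusted p = 1.15e-06) to APLNR+ cells and fell by 3.08 (adjusted p = 4.76e-10) to CD31+CD34+ cells, and the last difference of -0.28 was not called (adjusted p = 0.0548).

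LEFTY2 encodes a closely related inhibitor of the same ligand. It read 1.62, 1.64 and 1.56 FPKM in H1, 8.96, 9.26 and 8.46 at day 2, 1.43, 1.32 and 0.910 at day 5, and 0.221, 0.228 and 0.165 at day 8. Again no population overlapped another. The rise to APLNR+ cells was 1.92 ± 0.10 (SE, adjusted p = 9.59e-09), the fall to CD31+CD34+ cells 2.16 (adjusted p = 3.07e-09), and the last difference of -0.88 (adjusted p = 1.34e-05) missed the 2-fold minimum.

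LEFTY1 stood above LEFTY2 in every H1, APLNR+ and CD43+ library and below it in every CD31+CD34+ library. The ratio of their FPKM was 3.5 ± 0.406 in H1 (SD, n = 3), 1.71 ± 0.0695 at day 2, 0.766 ± 0.105 at day 5 and 2.82 ± 0.562 at day 8, the last from levels under 1 FPKM. How the counting divided reads between the pair is uncertain. Of the 50-base stretches in the LEFTY1 transcripts of GENCODE release 29, 26.8% also occur in LEFTY2 transcripts and 45.3% in the overlapping gene model AL117348.2, which had at most 4.81e-05 FPKM. TDGF1 has the same limit, with 34.0% of its stretches shared with the pseudogene TDGF1P3, whose level was 0.678% of that of TDGF1 in H1 as well as in APLNR+ cells. NODAL, GDF3, CER1, ACVR1B and INHBA shared no stretch with another gene.

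CER1 encodes Cerberus, a secreted protein that binds Nodal and BMP ligands. It read 1.58, 1.59 and 2.05 FPKM in H1, then 2167, 2301 and 2245 FPKM in APLNR+ cells, and 2.40, 1.52 and 1.56 FPKM in CD31+CD34+ cells. CD43+ libraries held 1.09, 0.0894 and 0.0806 FPKM, so that replicate 1 decided this mean. The APLNR+ libraries stood apart from all others, at 1286 times the H1 mean, with a rise of 9.68 ± 0.22 (SE, adjusted p = 1.27e-11) and a fall of 9.64 (adjusted p = 1.33e-11) on the log2 scale. H1 and CD31+CD34+ cells overlapped and differed by 0.04 (95% interval -0.44 to 0.51, adjusted p = 0.888). The last step, a fall of 1.05 (adjusted p = 0.00153), was lost from the calls without CD31+CD34+ replicate 1 (-0.91), CD43+ replicate 2 (-0.90) or CD43+ replicate 3 (-0.89).

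Definitive endoderm, a known site of CER1 expression, was looked for with 6 markers. Their summed level was between 0.124 and 0.911 FPKM in H1 libraries, 20.3 and 21.6 at day 2, 44.5 and 48.8 at day 5 and 27.0 and 35.8 at day 8. In APLNR+ cells SOX17 made up most of it, at 17.5 ± 1.87 FPKM, and APOA2 rose to 1.06, 3.29 and 2.50 FPKM, by 1.43 on the log2 scale (adjusted p = 0.00483). FOXA2, FOXA1, HHEX and TTR were under 1 FPKM in every APLNR+ library, with FOXA2 at 0.189, 0.379 and 0.607 FPKM above at most 0.0276 FPKM in H1. In CD31+CD34+ cells the sum was mostly SOX17 (24.2 ± 4.07 FPKM) and HHEX (19.0 ± 0.812 FPKM), which endothelial cells are also known to express, and FOXA2, FOXA1 and TTR were under 1 FPKM in every library. The part of endoderm cells in the CER1 values was not tested. The 6 mesoderm markers summed to between 489 and 534 FPKM in APLNR+ libraries against 2.78 to 2.93 in H1. Most of that sum was APLNR itself, the gene of the sort, at 383 ± 22.3 FPKM. The markers not sorted on averaged 71.3 (MIXL1), 26.2 (MESP1), 18.8 (PDGFRA), 4.44 (T) and 1.88 (TBX6) FPKM in APLNR+ cells. In H1 they averaged 0.205, 0.0482, 1.72, 0.0468 and 0.290 FPKM in that order. The sum was still between 388 and 437 FPKM in CD31+CD34+ libraries, again mostly APLNR. There the markers not sorted on averaged 1.10, 1.08, 4.24, 1.06 and 0.320 FPKM in the same order. The part of the sort in these sums was not tested.

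FOXH1 encodes the DNA-binding partner of the SMAD2 and SMAD3 complexes at Nodal target genes. Its libraries read 16.0, 14.4 and 14.5 FPKM in H1, 10.3, 8.69 and 7.52 at day 2, 5.80, 5.37 and 3.73 at day 5, and 1.69, 2.73 and 2.54 at day 8. No population overlapped another, and the level was lower at each later day. The single steps of -0.71, -0.73 and -0.84 (adjusted p = 0.00274, 0.00160 and 0.000951) each missed the 2-fold minimum, while over the whole course FOXH1 fell by 2.28 on the log2 scale (adjusted p = 7.74e-08). Unlike NODAL, LEFTY1, LEFTY2 and CER1, its mean was not highest in APLNR+ cells but 58.9% of that in H1. The pluripotency marker sums given for TDGF1 were lower along the same days, and their part in the FOXH1 values was not tested.

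The promoters of CER1, NODAL and GDF3 are shown because CER1 rose the most of the 10 genes at the activin step, while the ligands NODAL and GDF3 were not called there. Each sequence is the 250 bases before the start site, 5′ to 3′ on the gene's strand, from RefSeq on build GRCh38.p14: chr9:14722734-14722983 for CER1, chr10:70441682-70441931 for NODAL and chr12:7695776-7696025 for GDF3, all on the minus strand. Capitals mark matches on either strand to AATNNACA, the core of the motif bound by FOXH1, or to CAGAC, a SMAD-binding letter run.
CER1: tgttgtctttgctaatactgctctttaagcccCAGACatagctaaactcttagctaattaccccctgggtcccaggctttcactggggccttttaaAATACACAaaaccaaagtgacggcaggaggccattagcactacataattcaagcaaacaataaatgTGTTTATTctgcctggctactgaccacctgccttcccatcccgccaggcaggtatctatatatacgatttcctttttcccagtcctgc
NODAL: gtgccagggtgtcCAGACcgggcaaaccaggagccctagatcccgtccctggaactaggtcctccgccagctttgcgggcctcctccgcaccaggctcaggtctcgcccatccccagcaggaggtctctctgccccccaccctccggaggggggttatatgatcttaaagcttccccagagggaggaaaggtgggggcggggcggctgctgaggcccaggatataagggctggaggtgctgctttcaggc
GDF3: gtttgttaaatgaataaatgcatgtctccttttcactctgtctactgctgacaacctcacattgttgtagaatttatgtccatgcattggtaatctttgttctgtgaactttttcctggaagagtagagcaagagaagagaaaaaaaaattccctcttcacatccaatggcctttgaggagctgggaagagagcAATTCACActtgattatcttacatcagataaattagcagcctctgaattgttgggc
CER1 held AATNNACA at -154 and, on the other strand, at -88, and CAGAC at -218, counted from the start site to the match's leftmost base. NODAL held CAGAC alone, at -237, and GDF3 held AATNNACA alone, at -56. No match overlapped another. Among 35116 RefSeq promoter windows of this length 9.88% held AATNNACA and 38.0% held CAGAC, so single matches are common, and they describe letters, not binding. Of the 10 genes 7 had such a sequence, in 9 windows. Besides these 3 genes, 1 window of ACVR1B held CAGAC at -124, and the windows of TDGF1, ACVR2B and INHBA held no match. LEFTY1, LEFTY2 and FOXH1 were not searched.

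From H1 to APLNR+ cells, LEFTY1, LEFTY2 and CER1 rose and none of the 9 tested genes fell. All 3 that rose are antagonists. These are 3 of 9, against 15.9% of all 14840 genes tested, of which 1232 rose and 1131 fell. The ligand NODAL, at 0.91, lay near the limit. It was called with a pseudocount of 0.1 (1.10) or without H1 replicate 1 (1.02). With that pseudocount the count was 4 of 9, against 24.5% of all genes. The median change of the 9 was 0.45, beside -0.12 over all genes. NODAL and ACVR1B were higher, and FOXH1 and TDGF1 lower, by amounts that passed the adjusted p but not the 2-fold minimum. Without that minimum 7 of 9 passed, as did 57.9% of all genes. Activin A, BMP4, the days of culture and the sort came together at this step and cannot be told apart.

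From APLNR+ to CD31+CD34+ cells, when activin A and BMP4 were exchanged for VEGF and bFGF, NODAL, LEFTY1, LEFTY2, TDGF1 and CER1 fell and none rose. These are 5 of 9, against 29.6% of all genes (1861 rose and 2539 fell). The median change of the 9 was -2.16, beside -0.01 over all genes. ACVR2B and GDF3 did not pass the adjusted p, and ACVR1B was the only gene with a positive change. The medium, the day and the sorted cell type changed together at this step and cannot be told apart.

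From CD31+CD34+ to CD43+ cells, TDGF1, GDF3, CER1 and ACVR2B fell and none rose, 4 of 9 against 14.4% of all genes (828 rose and 1305 fell). The median change was -0.88, beside -0.00 over all genes. The count depends on the pseudocount: with 0.1 in place of 1, NODAL, LEFTY2 and FOXH1 were called as well, 7 of 9 in all, against 24.3% of all genes with that pseudocount.

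Across the ends of the course, from H1 to CD43+ cells, 8 of 9 fell and ACVR1B alone was not called, at 0.63 ± 0.11 (SE, adjusted p = 0.000241), against 37.1% of all genes (2163 rose and 3338 fell). The fall of CER1 here, 1.02 (adjusted p = 0.00107), was not called without H1 replicate 3 (-0.94), CD43+ replicate 2 (-0.86) or CD43+ replicate 3 (-0.86). Nor was it called under any of the 3 other scalings. They left 7 of 9 by upper quartile or median of ratios and 6 of 9 by quantiles, where LEFTY2 was lost too. The shares of all genes called under these scalings were not counted. From APLNR+ to CD43+ cells the same 8 genes fell and ACVR1B was not called, with a median of -2.86, against 33.6% of all genes. From H1 to CD31+CD34+ cells, NODAL, LEFTY1, TDGF1 and FOXH1 fell and ACVR1B rose, 5 of 9 against 40.1% of all genes. The level of LEFTY2 in CD31+CD34+ cells was 0.24 below that of H1 (adjusted p = 0.0438), so that of the 3 antagonists only LEFTY1 was called between these populations. These comparisons share populations with each other and are not independent.

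**Figure D2:**
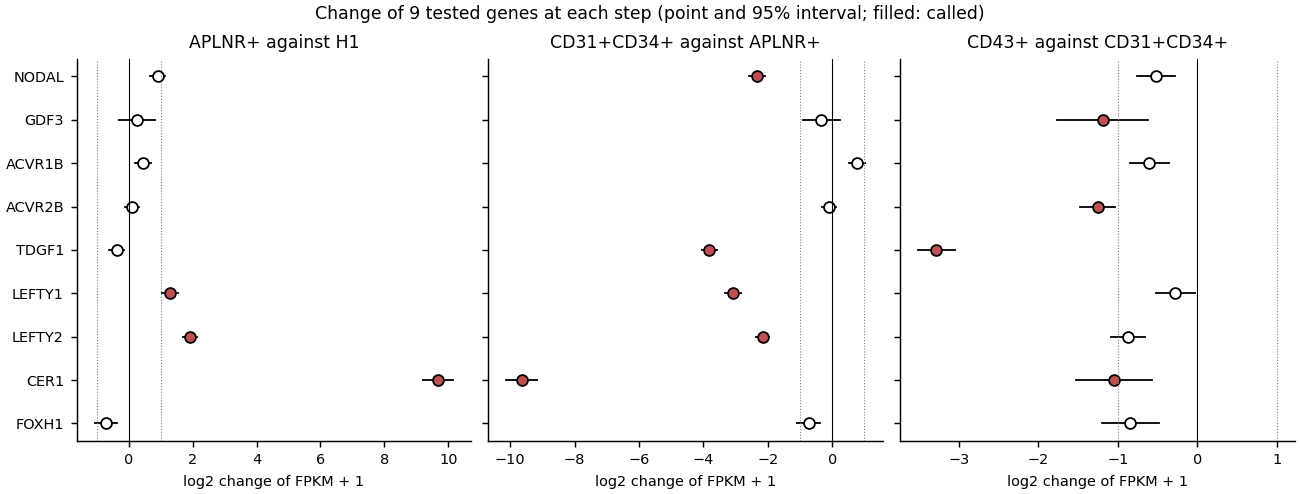
Change in log2(FPKM + 1) of the 9 tested genes at each of the 3 consecutive steps, with 95% intervals from limma; red points were called, dotted lines mark a 2-fold change, and each panel has an x range of its own. The red points are LEFTY1, LEFTY2 and CER1 on the higher side at the activin step, and on the lower side NODAL, LEFTY1, LEFTY2, TDGF1 and CER1 at the next step and TDGF1, GDF3, CER1 and ACVR2B at the last.

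Since FPKM is per length, ligand and antagonist levels can be set side by side within a library. The summed level of NODAL, GDF3 and INHBA was 7.70 ± 0.567 FPKM in H1, 12.3 ± 1.77 at day 2, 4.95 ± 1.37 at day 5 and 1.36 ± 0.467 at day 8 (SD, n = 3). The summed level of LEFTY1 and LEFTY2 was 7.22 ± 0.621, 24.1 ± 1.13, 2.14 ± 0.373 and 0.791 ± 0.233 FPKM in the same order. The LEFTY to ligand ratio was thus 0.944 ± 0.142 in H1 and 2.00 ± 0.369 in APLNR+ cells, with no overlap, and 0.470 ± 0.217 in CD31+CD34+ cells, all 3 of whose libraries lay below H1. In CD43+ cells it was 0.654 ± 0.317 and overlapped both H1 and CD31+CD34+ cells. With CER1 among the antagonists, the ratio was 187 ± 23.1 in APLNR+ cells against 1.17 ± 0.161 in H1, 0.886 ± 0.468 at day 5 and 1.09 ± 0.915 at day 8, and the last 3 overlapped. The day 8 mean rests on replicate 1 and was 0.584 without it. CER1 alone made up 90.0% ± 0.453 of the summed FPKM of the 10 genes in APLNR+ cells and 0.610% ± 0.129 in H1. These ratios were described, not tested, and say nothing of protein.

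**Figure D3:**
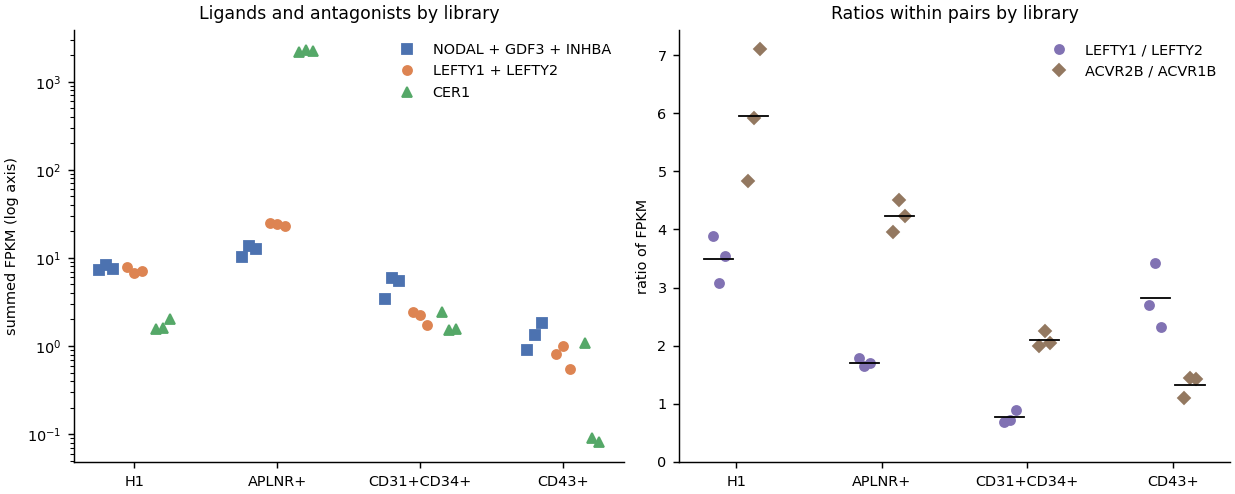
Left, summed FPKM of NODAL, GDF3 and INHBA (squares), of LEFTY1 and LEFTY2 (circles) and of CER1 (triangles) in each library, on a log axis, and right, the FPKM ratios LEFTY1 to LEFTY2 and ACVR2B to ACVR1B, with means as bars (n = 3). LEFTY sums average 7.22 FPKM beside 7.70 for the ligands in H1, 24.1 beside 12.3 in APLNR+ cells, and 2.14 beside 4.95 in CD31+CD34+ cells, and LEFTY1 to LEFTY2 dips to 0.766 in the latter.

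Other genes of the pathway were read from 5 lists of 37 genes, of which 29 were tested (GDF1, INHA, INHBB, INHBC, ACVR1C, CFC1, DAND5 and FOXA2 were not). To APLNR+ cells 12 rose and 3 fell, or 51.7% called against the 15.9% of all genes. To CD31+CD34+ cells 3 rose and 13 fell (55.2% against 29.6%), and to CD43+ cells 1 rose and 11 fell (41.4% against 14.4%). The lists were written with earlier results of these data known, so their shares are descriptions.

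Among the target genes, all 8 tested were called at the activin step, with 7 rising and NANOG falling. EOMES, a T-box factor of mesendoderm, went from at most 0.0793 FPKM in H1 libraries to 51.5, 58.7 and 59.1 FPKM in APLNR+ libraries (log2 change 5.75 ± 0.08 (SE), adjusted p = 4.62e-13), and fell by 3.48 at the next step. MIXL1, a homeobox gene of the primitive streak, rose by 5.88 and fell by 5.07. SOX17 kept another course: it rose by 4.12 and fell by 3.38 at the last step, and its change between was 0.44 (adjusted p = 0.0100). PMEPA1, a membrane-bound inhibitor of SMAD signaling, rose by 1.07, a call lost without APLNR+ replicate 1 (0.96) or H1 replicate 3 (0.95). At the next step 6 of the 8 fell, with NANOG and SOX17 not called.

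Among the other antagonists, FST, the activin-binding follistatin, rose and fell at the same early steps as LEFTY1, LEFTY2 and CER1. It read 2.97, 1.98 and 2.43 FPKM in H1, 65.6, 68.1 and 68.0 at day 2, 2.87, 2.80 and 3.79 at day 5, and 0.181, 0.0520 and 0.0840 at day 8, a rise of 4.31 ± 0.12 (SE, adjusted p = 5.52e-11) followed by falls of 4.05 and 1.90. BAMBI, a pseudoreceptor that lacks a kinase, rose by 3.49 from 10.4 ± 0.892 to 126 ± 12.7 FPKM, and its later differences of -0.60 and -0.50 were not called. Its CD43+ level was still 58.8 ± 7.59 FPKM. FSTL3 was called at no step. TMEFF1, a membrane protein that binds Cripto, fell by 1.34 and 1.28 at the later steps.

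Of the 12 SMADs and cofactors, SMAD7, the inhibitory SMAD that Nodal and BMP signals induce, rose by 1.15 to APLNR+ cells, where SKIL and TGIF1 fell by 1.00 and 1.01. Both falls lay at the 2-fold limit and were lost under each of the 3 other scalings: by upper quartile they were -0.90 and -0.91. SKIL was lost without APLNR+ replicate 1 and TGIF1 too, at -0.91 and -0.97, and each was also lost without some H1 libraries. SMAD7 stayed at 23.8 ± 0.840 FPKM in CD31+CD34+ cells, beside 21.5 ± 3.31 in APLNR+ cells, and fell by 2.92 at the last step. SMAD2, SMAD3 and SMAD4 were called at no step, although SMAD3, at 0.99 to APLNR+ cells, stood just below the limit and was called under several settings.

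Among the ligand convertases and receptors, FURIN, which cleaves Nodal and other precursors, rose at both early steps, by 1.83 and 2.28, to 74.8 ± 3.10 FPKM in CD31+CD34+ cells. Its fall at the last step, by 1.01, was lost without CD31+CD34+ replicate 2 (-0.98) or CD43+ replicate 3 (-0.94), and under each of the 3 other scalings (-0.98 by upper quartile, -0.98 by median of ratios and -0.93 by quantiles). PCSK6, another convertase of Nodal, rose only at the last step, by 1.82 to 7.43 ± 1.01 FPKM. ACVR2A, the other activin type II receptor, rose by 1.12 to APLNR+ cells and fell by 1.77 at the next step, where ACVR2B was called at neither. TGFBR3, a co-receptor for TGF-beta and inhibin, rose by 1.18 to CD31+CD34+ cells.

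**Figure D4:**
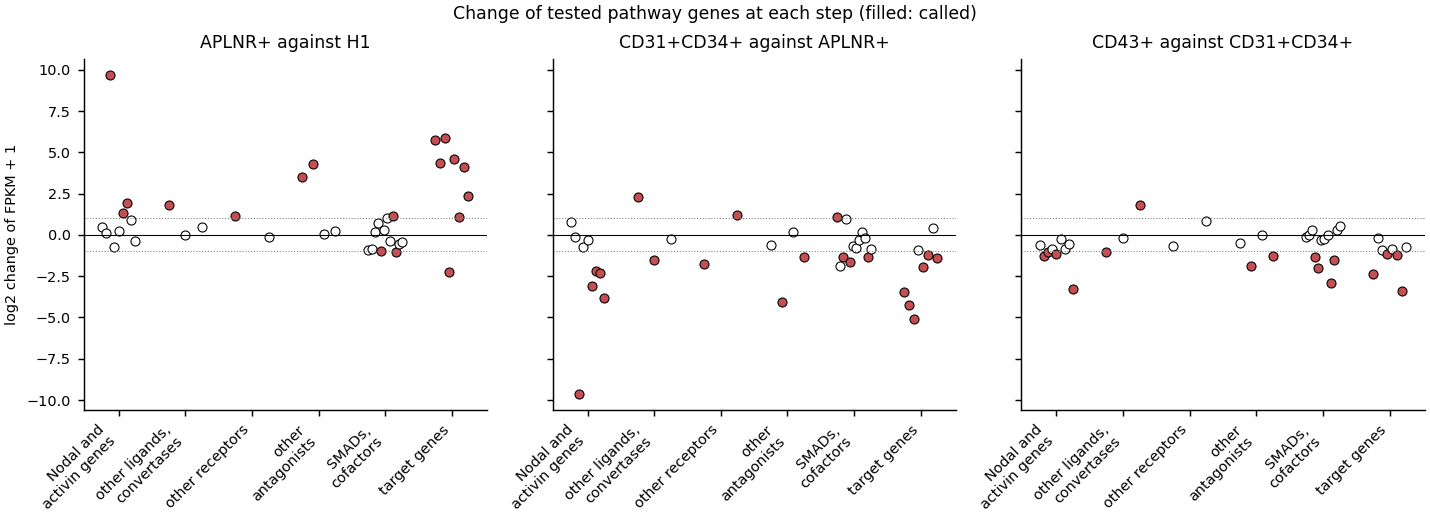
Change in log2(FPKM + 1) of each tested gene at the 3 consecutive steps, a point per gene, for the group of 9 and for the 5 other pathway lists (29 tested genes). Red points were called and dotted lines mark a 2-fold change. At the activin step 7 target genes are red above 0 and 1 below, and at the next step the 5 lists hold 3 red points above 0 and 13 below.

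For each tested gene, the 2 genes of most similar course over the 4 population means were found by the root mean square distance between centered means of log2(FPKM + 1). The nearest to NODAL were SOCS1 (distance 0.0534) and SLC7A11 (0.130), to LEFTY1 NRN1L (0.194) and STC1 (0.220), and to LEFTY2 SYNDIG1 (0.0518) and JAKMIP1 (0.0804). GDF3 had LARP6 (0.0152) and TIAM2 (0.0270), FOXH1 had ZNF682 (0.0455) and FHL1 (0.0609), ACVR1B had DDA1 (0.0205) and DYNLRB1 (0.0220), and ACVR2B had ASB1 (0.0440) and ITGB1 (0.0446). TDGF1 lay farther from its nearest, ADCY2 (0.793) and POU5F1 (0.877). CER1 had no close neighbor, with GRP at 1.61 and MIXL1 at 1.92. None of the 10 genes was among the nearest of another.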

How the data were processed

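RNA-seq libraries from 4 populations (H1, APLNR+, CD31+CD34+ and CD43+, 3 libraries each) were used, grouped and numbered by their sample titles. Per the labels, Trizol total RNA was made into Illumina TruSeq libraries. The study's methods name BGI and Novogene for RNA-seq and do not say which of them made these libraries. The values are FPKM, deposited by the authors as 1 table and normalized for transcript length and library size. The submitters' processing notes name BWA, Bowtie, RSEM and hg19 with no versions, and their roles, the annotation and any further scaling are not given in the sources used here. Low genes, and near-identical genes whose reads may be shared, are the least certain. Of 58366 lines 1 held text, and where 345 symbols recurred the line of highest mean was used.

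Values were transformed as log2(FPKM + 1), and genes with 1 FPKM in at least 3 libraries (14840) were fitted with limma 3.58.1 in R 4.3.3 (eBayes with trend, 4 populations in a single model, no covariate). Adjusted p values are Benjamini-Hochberg over all genes of a comparison, and 6 comparisons were made. Calls needed an adjusted p below 0.05 and at least 2-fold difference. On simulated data for APLNR+ against H1, 198 of 200 changed genes and 1 unchanged gene were called among 14840. The planted changes were of 2 on the log2 scale, in genes whose H1 mean of log2(FPKM + 1) was above 3. Smaller changes, and genes that are lower in H1 such as NODAL and CER1, were not covered. The smallest p of an exact two-sided permutation test, 3 libraries against 3, is 0.1. Named genes are the 10 genes, the genes of the pathway and marker lists, and for each tested gene the 2 of nearest course. The genes, lists and tests were chosen with earlier results of these data known. Alternatives were another pseudocount, filters, scalings, a moderated fit without trend, the compared populations alone, no minimum change, a replicate block, replicates 2 and 3 alone and leaving out each library. Shared stretches came from GENCODE release 29 transcripts and promoters from RefSeq. TDGF1 is listed there as CRIPTO.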

Additional observations from a re-analysis of the deposited data

How the results depend on the processing

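Of 54 changes of single genes under the alternatives, giving 1170 values, 1141 kept their direction and their call, 13 turned direction, 6 gained a call and 10 lost it. All that turned are uncalled differences between CD31+CD34+ and H1 cells near 0. GDF3 (-0.08) became 0.0915 after quantile normalization and 0.0331 with replicates 2 and 3 alone, and ranged from -0.23 to 0.16 when single libraries were left out. CER1 (0.04) became -0.15 with replicates 2 and 3 alone and ranged from -0.10 to 0.12. ACVR2B (-0.01) became 0.0648 by upper-quartile scaling, 0.0479 by median-of-ratios scaling and 0.0497 by quantile normalization, and ranged from -0.0474 to 0.0214, turning without H1 replicate 2 or CD31+CD34+ replicate 3. With a pseudocount of 0.1, NODAL was called from H1 to APLNR+ cells (1.10), and NODAL (-2.25), LEFTY2 (-2.10) and FOXH1 (-1.07) from CD31+CD34+ to CD43+ cells, which raised that count from 4 to 7. FOXH1 also gained that call without CD31+CD34+ replicate 3 (-1.0017). From H1 to CD43+ cells the call of CER1 was lost under upper-quartile (-0.95), median-of-ratios (-0.95) and quantile (-0.86) scaling, and that of LEFTY2 under quantile normalization (-0.93), which moved the median of all genes there from -0.10 to 0.02. Without the 2-fold minimum, 7 of the 9 genes were called from H1 to APLNR+ cells (5 higher, 2 lower), 8 from CD31+CD34+ to CD43+ cells, and 20 of the 29 pathway genes at that last step (4 higher, 16 lower), where 57.9% and 53.6% of all genes passed in the 2 comparisons. A mean of at least 5 FPKM left 6 of the 10 genes in the test, of which 3 were called from APLNR+ to CD31+CD34+ cells, 5 from H1 to CD43+ cells and 5 from APLNR+ to CD43+ cells (34.9%, 38.4% and 35.7% of all 8622 genes left). With single libraries left out, the counts of called genes among the 9 ranged from 3 to 4, 5 to 5 and 3 to 5 at the 3 consecutive steps. The shares of all genes called in those fits were not counted, so these ranges describe the 9 alone.

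Replicate numbers are shared by the populations, but nothing says what they mark. Deviations of same-numbered libraries from their population means correlated between -0.02 and 0.43 over 18 pairs, 12 of them over 0.1, and 23 of 36 best matches had the same number. The replicate 1 pairs all lay between 0.196 and 0.429. Replicate 1 against replicate 2 or 3 of another population lay between -0.404 and -0.0611. What the replicate 1 libraries share was not tested. Since pairing was taken to need every pair over 0.1, the numbers were not taken as pairs. With a replicate block, calls at the consecutive steps numbered 3, 5 and 4 of the 9 genes and 15, 16 and 12 of the pathway genes, the same counts as without it. The share of all genes called with the block was not counted. The adjusted p of single genes moved, for GDF3 from APLNR+ to CD31+CD34+ cells from 0.260 to 0.0271 and for LEFTY1 from CD31+CD34+ to CD43+ cells from 0.0548 to 0.0299, both under the 2-fold minimum in either fit. With 3 libraries per population and no read totals, levels under 1 FPKM, such as NODAL, LEFTY2 and CER1 in CD43+ cells, are the least precise.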

Other observations

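NEDD4L, a ubiquitin ligase gene of the SMAD cofactor list, read 17.7, 67.7 and 440 FPKM in the H1 libraries and 14.5, 240 and 23.8 FPKM in the APLNR+ libraries, a wider spread than in CD31+CD34+ cells (5.74 to 18.0 FPKM). Its call from H1 to CD43+ cells (-2.77) was lost without H1 replicate 3 (-1.57) and without 4 other libraries in turn.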
